A study of Rattus norvegicus with 6 samples.

Results

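Rab GTPases are described here by the accessible chromatin sites (ACSs) that lie nearest to their genes in rat pancreatic islets. The members are all ACSs of the deposited ATAC-seq table whose nearest gene has a symbol of Rab followed by a digit. They are 448 of 101603 distinct ACSs, listed with 59 gene symbols. The rule takes no measured value into account. Of the symbols, 53 name Rab GTPases, with 411 ACSs, and 6 name other genes whose symbols begin alike, with 37 ACSs, namely Rab3il1, Rab3ip, Rab3gap2, Rab11fip1, Rab11fip2 and Rab11fip4, which are activators, a regulator and effectors of Rabs. Some well-known members of the family, such as Rab37 and Rab2b, were not analysed here.

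ATAC-seq inserts sequencing adapters into open chromatin with the Tn5 transposase, and the values are counts of these integrations per ACS. Libraries came from dissociated islet cells of 3 adult male Sprague-Dawley rats of around 90 days, with 1 library per rat, and of Sprague-Dawley pups aged 10 days (P10), with 1 library for each of 3 litters. Each P10 library was made from a few pups pooled. Pups of both sexes were kept, and the sexes in each pool are not given in the sources used here. Age and pooling differ together between the groups, sex may as well, and these cannot be told apart. None of the animals carried a transgene or received a treatment that the labels name. The libraries held between 7916919 and 11903909 integrations in ACSs in adults and between 13491534 and 21168463 at P10, so counting error was larger in adults. Levels are given as CPM, which are counts relative to the total of the library, after TMM scaling of the totals, and the log2 fold change is positive where adults were higher. An ACS was called Up or Down at the limits the study used, a p-value under 0.05 and an adjusted p under 0.2, in edgeR's quasi-likelihood test with Benjamini-Hochberg adjustment over all ACSs.

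Rab proteins are small GTPases that mark the membranes of the secretory and endocytic pathways. An exchange factor (GEF) loads the Rab with GTP on its membrane, the active form recruits effectors that move, tether or fuse vesicles, and a GTPase-activating protein (GAP) ends the cycle before GDI returns the Rab to the cytosol. In beta cells, Rab3 and Rab27 proteins sit on insulin granules and take part in their docking and release, while Rab1 and Rab2 act between endoplasmic reticulum and Golgi, Rab5 on early endosomes, Rab4 and Rab11 in recycling, and Rab7 on late endosomes and lysosomes. Islets of newborn rats release insulin poorly in response to glucose, and this response develops in the weeks after birth.

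The DNA before the gene start is shown for 4 Rabs on which the results turn. Rab3a and Rab27a encode granule Rabs, Rab12 has the most ACSs and the most called ACSs of all members, and Rab25 had the lowest fold change when counts were summed per gene. Each sequence is taken from the 250 bases upstream of 1 transcript's start in RefSeq for GRCr8, written 5′ to 3′ on the gene's strand, and for Rab12 it is the 144 bases of these that lie outside the gene. Capitals mark matches, on either strand, to a GC box (GGGCGG), a CRE (TGACGTCA), an E-box (CACGTG), to the CCAAT box, to an AP-1 site (TGANTCA) or to a TATA box (TATAAA), and overlaps between them were not removed.
Rab3a, chr16:18722274-18722523, minus strand: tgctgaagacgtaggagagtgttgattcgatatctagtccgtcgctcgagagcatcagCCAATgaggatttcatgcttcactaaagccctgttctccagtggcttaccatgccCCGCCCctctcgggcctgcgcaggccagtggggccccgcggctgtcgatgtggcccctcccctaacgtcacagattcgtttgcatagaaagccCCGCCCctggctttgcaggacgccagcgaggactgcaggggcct
Rab27a, chr8:82663123-82663372, plus strand: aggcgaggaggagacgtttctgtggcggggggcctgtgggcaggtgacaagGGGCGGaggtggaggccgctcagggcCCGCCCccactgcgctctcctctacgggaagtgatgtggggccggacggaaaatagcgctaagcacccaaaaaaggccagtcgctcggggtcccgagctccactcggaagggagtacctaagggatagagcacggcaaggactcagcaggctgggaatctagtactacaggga
Rab12, chr9:113953723-113953866, minus strand: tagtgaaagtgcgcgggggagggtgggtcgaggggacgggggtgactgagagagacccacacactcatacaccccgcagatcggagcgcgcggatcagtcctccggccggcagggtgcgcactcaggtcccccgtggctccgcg
Rab25, chr2:176304222-176304471, minus strand: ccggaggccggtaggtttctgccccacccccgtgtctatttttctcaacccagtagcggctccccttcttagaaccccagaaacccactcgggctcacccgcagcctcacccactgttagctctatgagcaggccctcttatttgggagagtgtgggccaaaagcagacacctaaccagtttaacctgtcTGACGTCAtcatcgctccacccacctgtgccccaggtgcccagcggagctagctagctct
The Rab12 stretch holds none of the 6 motifs and 15 CpG dinucleotides. Rab25 is the only member with a CRE in the 250 bases, and Rab3a and Rab27a each hold 2 GC boxes. For the 60 gene identifiers of the members, 47 promoters were found under the same symbol, with more than 1 for Rab30. In 26 of them these bases lie partly or wholly inside the gene by another transcript. A GC box was present in 74.5% of these 47, against 30.5% of all 33469 RefSeq promoters of that length, and a TATA box in 0% against 12.9%. The CRE (2.13% against 1.59%), the E-box (6.38% against 5.59%), the CCAAT box (31.9% against 34.0%) and the AP-1 site (8.51% against 6.34%) were closer to their shares in all promoters. The median number of CpG dinucleotides was 16 in Rab promoters and 5 in all, and the median GC content was 62.4% and 51.2%. A match of letters is a description and not a binding site. The ACSs are placed on Rn5 and these promoters on GRCr8, so a motif could not be put on an ACS here.

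Among all 448 members, 73 ACSs (16.3%) were called Up, against a background of 12.3% of all ACSs, and 20 (4.46%) were called Down, against 6.63%. The other 355 were not called, and 103 had an unadjusted p-value under 0.05. The median log2 fold change was 0.042 over the members and -0.008 over all ACSs. At the same limits, the paper reports more Down than Up calls over all ACSs, the reverse of the background here. With column sums as library sizes, 10447 of all ACSs were Up here and 10732 Down. Why the balance differs from the paper was not tested. Every library of adults lay above every P10 library in 89 members, a pattern that 13.8% of all ACSs show, and below in 32, a pattern that 10.9% of all ACSs show. The median log2 fold change was 0.94 in the Up and -0.95 in the Down ACSs, and the groups did not overlap in 66 and 17 of them. These ACSs were selected by p-value in the same libraries, so both values follow in part from that selection. The same values over all called ACSs were not counted. In islet cells taken as a whole, fewer cells with an open site and less opening per cell cannot be told apart.

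The counts moved with single libraries and with the scaling. Without P10 replicate 2, 42 members were Up and 12 Down, and without P10 replicate 3, 10 were Down. None of the 93 called ACSs changed its sign when a library was left out. With column sums as library sizes, 60 were Up and 34 Down, with cyclic loess 62 and 30, and with the total reads of each library 7 and 248. Total reads moved the median log2 fold change of all ACSs to -0.84 and that of the members to -0.80, so directions below are relative to the bulk of ACSs.

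A single gene contributed many of the Up calls. Of the 73 Up members, 22 (30.1%) were listed with Rab12, which takes membrane cargo from recycling endosomes towards lysosomes. Without the 62 ACSs of Rab12, 51 of 386 members (13.2%) were Up and 19 (4.92%) were Down, and the median log2 fold change was -0.003. The share of Up calls outside Rab12 was thus close to the 12.3% of all ACSs.

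Calls were also counted by position relative to the gene. The authors' table sorts ACSs into those within 1000 bp of a gene start (TSS), those up to 10000 bp (PROXIMAL) and the rest (DISTAL), and the members held 53, 40 and 355 of these. In the TSS class 1 of 53 members was Up and 0 were Down, while 2.73% of all TSS ACSs were Up and 7.87% Down. In the same test, 1 of the 53 had an unadjusted p-value under 0.05, and limma's voom test and DESeq2 each called 1 Up and 0 Down. In the PROXIMAL class 4 were Up and 1 Down, that is 10.0% and 2.5%, against 11.2% and 6.71% of all PROXIMAL ACSs. In the DISTAL class 68 were Up (19.2%) and 19 Down (5.35%), against 13.8% and 6.45% of all DISTAL ACSs. Rab12 alone supplied 13 of these Up calls downstream of the gene and 7 upstream, and also the Up ACS 14765 bp inside it. The 19.2% therefore rests in part on this gene. The share of this class without Rab12 was not counted.

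**Figure D1:**
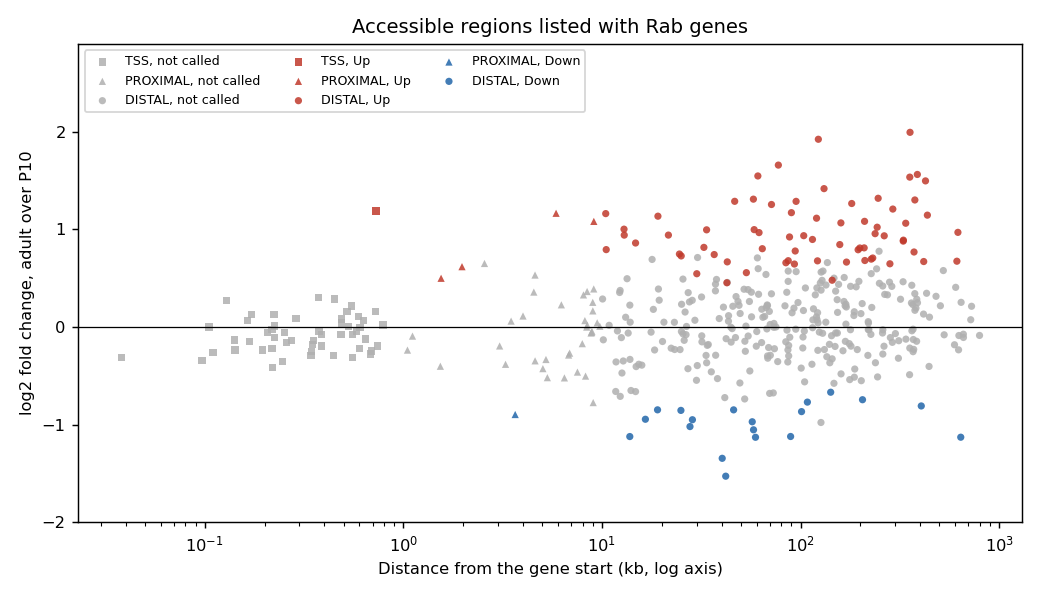
Each point is 1 of the 448 members, with the distance from its gene's start in kb on a log axis and the log2 fold change of adult over P10 on the vertical axis. Squares, triangles and circles are the TSS, PROXIMAL and DISTAL classes, red and blue points were called Up and Down, and the only called square is the Up ACS of Rab12.

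The 47 members that overlap a gene start included 0 called ACSs, and their log2 fold changes ran from -0.42 to 0.30. By voom and by DESeq2 0 of the 47 were called, and 0 had an unadjusted p-value under 0.05 in edgeR. Counts were higher at starts than elsewhere. The median count was 374.7 per library in the TSS class and 65.17 in the DISTAL class, and the median standard error (SE) was 0.19 and 0.29. Groups did not overlap at 8 of the 53 TSS members, 4 higher and 4 lower in adults, that is 7.55% each, against 5.24% and 15.6% of all TSS ACSs. Besides Rab12 these were Rab2a, Rab31 and Rab39a on the higher side and Rab6a, Rab10, Rab20 and Rab11fip2 on the lower, with log2 fold changes between -0.34 and 0.30 for these 7. They are named because their count is small, after their values were seen.

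The Rabs of the insulin granule showed no called change at their gene starts, and all 6 start ACSs had a negative fold change when total reads set the library sizes. Rab27b tethers granules at the plasma membrane, and its start ACS, on chromosome 18 of Rn5 from 67703352 to 67704162, held 64.4, 46.6 and 60.3 CPM in the 3 adults and 48.0, 57.6 and 56.4 CPM in the 3 P10 libraries. Its log2 fold change was 0.08 (SE 0.16, adjusted p = 0.842), and the lowest library was an adult. Rab3a is the main Rab3 form of neurons and endocrine cells, and its start ACS (chromosome 16, 20296106 to 20296615) held 39.1, 34.7 and 22.6 CPM in adults and 39.0, 36.9 and 31.1 CPM at P10. The groups overlapped, with a log2 fold change of -0.15 (SE 0.19, adjusted p = 0.735).

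Rab27a, which also recruits granules to the membrane, had the largest difference at a start among the granule Rabs. Its ACS (chromosome 8, 73366518 to 73367396) held 20.2, 19.7 and 18.05 CPM in adults and 19.8, 14.1 and 14.2 CPM at P10, so 1 P10 library lay within the adult range. The log2 fold change was 0.27 (SE 0.20, adjusted p = 0.497). The other Rab3 forms gave -0.10 for Rab3c, 0.01 for Rab3d and -0.14 for Rab3b, with standard errors from 0.18 to 0.22 and overlapping groups each time. Rab26, a Rab of secretory granule maturation, had a single ACS in the table, 1049 bp upstream of its start, at 17.8, 12.95 and 12.8 CPM in adults and 19.99, 17.8 and 13.7 CPM at P10 (log2 fold change -0.24, SE 0.22, adjusted p = 0.593).

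**Figure D2:**
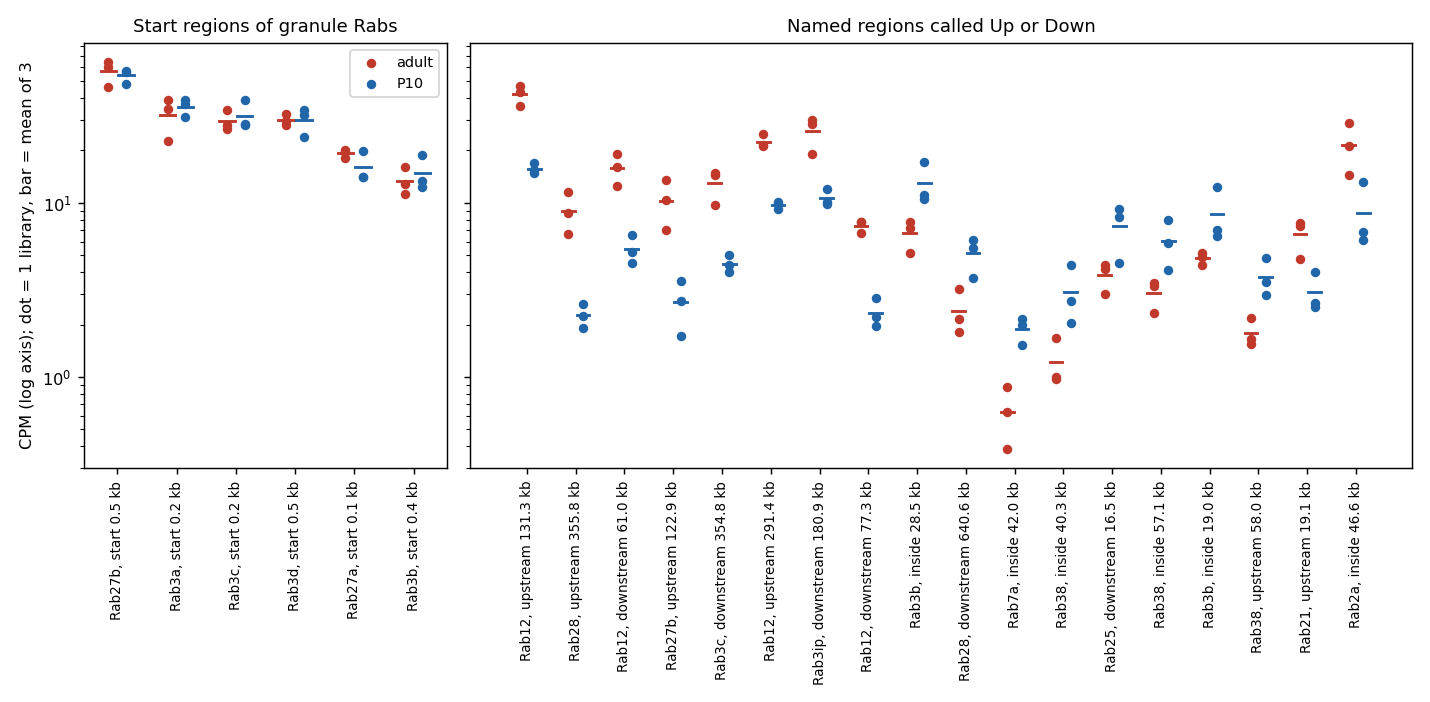
CPM on a log axis in each library, with red dots for the 3 adults, blue dots for the 3 P10 libraries and a bar for each mean. The left panel holds the start ACSs of the granule Rabs, where red and blue dots overlap in all 6. The right panel holds 18 ACSs called Up or Down, where the colours do not overlap in any. These 18 were selected by their p-values in the same libraries.

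Of all 55 ACSs of granule Rabs, 9 were Up (16.4%) and 2 were Down (3.64%), against 12.3% and 6.63% of all ACSs, and these 11 lie away from the starts. The ACS 122892 bp upstream of Rab27b (chromosome 18, 67826733 to 67827017) held 13.6, 10.3 and 6.96 CPM in adults and 3.58, 1.71 and 2.75 CPM at P10. Every adult was above every P10 library, and the log2 fold change was 1.92 (SE 0.30, adjusted p = 1e-04). A further Rab27b ACS 42557 bp inside the gene was Up by 0.45, with adjusted p = 0.142, and this call held in 3 of the 6 fits that left out a library.

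Rab3c has 21 ACSs, of which 4 were Up, all downstream of the gene. The ACS 354750 bp downstream (chromosome 2, 60488595 to 60488858) held 14.4, 9.74 and 14.8 CPM in adults and 4.42, 4.99 and 4.02 CPM at P10. The log2 fold change was 1.54 (SE 0.25, adjusted p = 0.000155), with no overlap. This ACS lies inside another gene of the table, Pde4d, a phosphodiesterase that degrades cAMP, as do 2 more of the 4.

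Within Rab3b, neighbouring ACSs of the gene body went in opposite directions. The ACS 28539 bp inside (chromosome 5, 132371720 to 132372175) held 7.77, 5.16 and 7.22 CPM in adults and 17.1, 10.6 and 11.2 CPM at P10. It fell, with a log2 fold change of -0.95 (SE 0.25, adjusted p = 0.0153). The ACS 19048 bp inside was lower as well, at 5.15, 4.38 and 4.90 CPM in adults and 12.4, 6.49 and 6.98 CPM at P10, with a log2 fold change of -0.85 (SE 0.28, adjusted p = 0.0564). Without P10 replicate 1, the highest library, it was -0.50 with adjusted p = 0.325 and no longer called. An ACS 12914 bp inside, named after its values were seen, was higher at 8.95, 6.14 and 8.25 CPM in adults against 5.48, 3.14 and 2.91 CPM at P10, with a log2 fold change of 1.002 (SE 0.29, adjusted p = 0.0273). Rab27a had its own called ACS 12948 bp inside the gene, also named afterwards, with a log2 fold change of 0.94 (SE 0.24, adjusted p = 0.00989).

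Rabs of the endoplasmic reticulum and Golgi had 89 ACSs, 13 Up (14.6%) and 2 Down (2.25%), against 12.3% and 6.63% of all ACSs. Rab2a, which acts in transport between these compartments and in the making of secretory granules, supplied 6 of the 13. Its ACS 46592 bp inside the gene (chromosome 5, 26432769 to 26433425) held 28.6, 14.4 and 21.1 CPM in adults and 13.2, 6.13 and 6.77 CPM at P10. The groups did not overlap, although the lowest adult was close to the highest P10 library, and the log2 fold change was 1.29 (SE 0.27, adjusted p = 0.00202). Rab36, a Golgi-associated Rab, supplied another 4 of 13, all downstream of the gene between 33.642 and 86.704 kb. Both Down ACSs belong to Rab18, a Rab of the endoplasmic reticulum and lipid droplets, which also had 1 Up ACS.

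The exocytic Rabs Rab8a, Rab8b, Rab10 and Rab13 carry vesicles to the plasma membrane. They had 6 ACSs and 0 calls, by edgeR, voom or DESeq2, with log2 fold changes from -0.43 to 0.39 and 0 unadjusted p-values under 0.05. Early endosome Rabs had 30 ACSs, 3 Up (10.0%) and 0 Down, against 12.3% and 6.63% of all ACSs. Voom and DESeq2 each called 1 Up and 0 Down among them. No Down difference of this group had an unadjusted p-value under 0.05. The group leaves out Rab5al1, which is listed with the identifier of Rab5a and was kept apart. Its 18 ACSs held 5 Up (27.8%) and 1 Down (5.56%), so the shares of the group depend on where it is placed. Rab21, which takes part in integrin traffic, had 2 of the 3 Up ACSs of the group. Its ACS 19136 bp upstream (chromosome 7, 58314808 to 58315218) held 7.68, 7.40 and 4.77 CPM in adults and 2.65, 3.99 and 2.54 CPM at P10, a log2 fold change of 1.14 (SE 0.30, adjusted p = 0.0141) without overlap.

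Recycling Rabs had 47 ACSs, 6 Up (12.8%) and 3 Down (6.38%), close to the shares among all ACSs. Rab11a and Rab4a, the best known of them, had 1 Up and 2 Down of 15 and 2 Up of 9. Rab25, an epithelial relative of Rab11, had 4 ACSs and a negative fold change at each. The ACS 16547 bp downstream (chromosome 2, 207295251 to 207295718) held 2.98, 4.19 and 4.38 CPM in adults and 9.25, 8.34 and 4.55 CPM at P10. It was Down with a log2 fold change of -0.95 (SE 0.30, adjusted p = 0.0466), and 1 P10 library was barely above the adults. Rab15, a Rab of early and recycling endosomes, had 2 ACSs, and they differed from each other. The ACS at its start held 10.8, 11.6 and 10.1 CPM in adults and 10.6, 11.1 and 8.56 CPM at P10 (log2 fold change 0.10, SE 0.23, adjusted p = 0.857). The ACS 5875 bp inside the gene (chromosome 6, 109260457 to 109261038) held 30.9, 19.96 and 20.9 CPM in adults and 13.7, 7.20 and 10.9 CPM at P10, with a log2 fold change of 1.16 (SE 0.23, adjusted p = 0.00135) and no overlap.

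Late endosome and lysosome Rabs had 114 ACSs, 26 Up (22.8%) and 6 Down (5.26%), against 12.3% and 6.63% of all ACSs, and 22 of the 26 belong to Rab12. Without Rab12, 4 of the 52 ACSs of this group were Up (7.69%) and 5 were Down (9.62%). Rab38, which acts in lysosome-related organelles, had 20 ACSs with 3 Down, also by voom and by DESeq2, and 0 Up in any of these tests or at an unadjusted p-value under 0.05. Its ACS 40314 bp inside the gene (chromosome 1, 158426202 to 158426480) held 0.994, 0.974 and 1.68 CPM in adults and 2.05, 4.42 and 2.75 CPM at P10, with a log2 fold change of -1.35 (SE 0.41, adjusted p = 0.0354). The ACS 57100 bp inside gave -0.97 (SE 0.31, adjusted p = 0.0495) and the ACS 57964 bp upstream -1.05 (SE 0.35, adjusted p = 0.0571). Each of the 3 Rab38 calls was lost without 1 library. The first and the next were lost without P10 replicate 2 (-1.02 with adjusted p = 0.263, and -0.74 with adjusted p = 0.304), and the last without P10 replicate 3 (-0.85, adjusted p = 0.268).

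Rab7a directs late endosomes to lysosomes. Its ACS 41993 bp inside the gene (chromosome 4, 185163842 to 185164087) held 0.633, 0.876 and 0.387 CPM in adults and 1.999, 2.14 and 1.53 CPM at P10, so the groups were apart but the fewest counts in a library were 3. The log2 fold change was -1.53 (SE 0.45, adjusted p = 0.0307), the lowest of all members. Rab7a also had an Up ACS 10506 bp upstream, named after its values were seen, at 9.67, 5.36 and 4.77 CPM in adults and 4.04, 3.71 and 3.75 CPM at P10. The log2 fold change was 0.79 (SE 0.29, adjusted p = 0.0969), and the call held in 3 of the 6 fits without a library. Without Adult replicate 4, the highest library, it was 0.40 with adjusted p = 0.545. Its relative Rab7b had 2 ACSs, both called and in opposite directions, 0.62 at 1974 bp and -0.86 at 24979 bp inside the gene. These calls, named after their values were seen, held in 1 and 2 of the 6 fits without a library.

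Rab28, a Rab of cilia and photoreceptors that is grouped with Rab23 and the Rab40 genes here, had 45 ACSs, 4 Up and 5 Down. The ACS 355765 bp upstream (chromosome 14, 73538574 to 73538832) held 11.5, 6.62 and 8.77 CPM in adults and 2.23, 2.64 and 1.90 CPM at P10. Its log2 fold change of 1.99 (SE 0.29, adjusted p = 4.6e-05) was the highest of all members. On the other side of the gene, 640553 bp downstream (chromosome 14, 74534892 to 74535127), the values were 1.81, 2.14 and 3.22 CPM in adults and 5.53, 3.71 and 6.13 CPM at P10, a log2 fold change of -1.13 (SE 0.33, adjusted p = 0.0274). The groups were apart at both ACSs. Nkx3-2 and Bod1l1, the next genes upstream in RefSeq, are the nearest gene of 0 ACSs in the table.

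**Figure D3:**
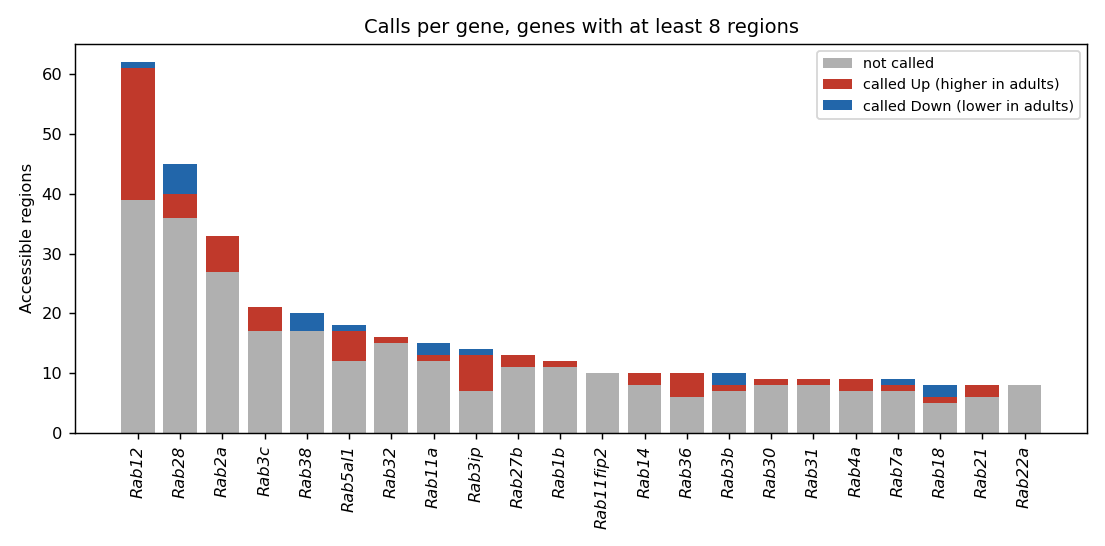
Bars give the number of ACSs for each gene with at least 8, split into those not called (grey), called Up (red) and called Down (blue). Rab12 has 62 ACSs with 22 Up and 1 Down, Rab28 has 45 with 4 Up and 5 Down, and Rab11fip2 and Rab22a have 0 called.

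Rab12 had the most ACSs of all members. They were 62 on chromosome 9, of which 22 were Up (35.5%) and 1 Down, 49 had a positive log2 fold change, and the median was 0.41. The 62 ACSs together held 0.0822%, 0.0720% and 0.0817% of the counts of the 3 adult libraries and 0.0608%, 0.0561% and 0.0553% of those at P10. The shares did not overlap. The exact permutation test, counting both directions, gave p = 0.1, the smallest that 3 against 3 libraries can give. Rab12 was set apart after its Up calls in these same libraries were seen, so this result follows in part from that selection. All members held a mean of 0.512% of counts in adults and 0.499% at P10, with p = 0.5 in the same exact permutation test. All members without Rab12 took up 0.433% ± 0.022 of an adult library and 0.441% ± 0.023 of a P10 library (mean and SD, n = 3), with p = 0.6 in the same exact permutation test.

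At the start of Rab12 no change was called. The ACS over its start (114210931 to 114211718) held 22.2, 16.4 and 22.4 CPM in adults and 19.5, 20.1 and 17.8 CPM at P10, with overlapping groups and a log2 fold change of 0.09 (SE 0.19, adjusted p = 0.86). The next ACS into the gene, 728 bp from the start (114210491 to 114210894), held 16.1, 11.6 and 13.8 CPM in adults and 6.93, 5.49 and 5.71 CPM at P10. It was Up with a log2 fold change of 1.19 (SE 0.24, adjusted p = 0.00124), and it is the called member of the TSS class.

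Downstream of Rab12, 37 ACSs spread between 54.4 and 380.9 kb from its start, with 13 Up, 1 Down and 30 above 0. Among them, the ACS at 60956 bp (114150263 to 114150545) held 19.2, 12.5 and 16.1 CPM in adults and 6.51, 4.49 and 5.23 CPM at P10, a log2 fold change of 1.55 (SE 0.24, adjusted p = 9.64e-05). The ACS at 77298 bp (114133921 to 114134157) held 7.77, 6.72 and 7.73 CPM in adults and 1.95, 2.21 and 2.85 CPM at P10, a log2 fold change of 1.66 (SE 0.29, adjusted p = 0.000334). In neither did the groups overlap. The gene next to Rab12 on this side in RefSeq, Mtcl1, which encodes a microtubule-binding protein, is the nearest gene of 0 ACSs in the table, so ACSs of that stretch are listed with Rab12.

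Upstream, the nearest 5 ACSs, up to 129.7 kb away, had 0 calls by edgeR, voom or DESeq2 and 0 unadjusted p-values under 0.05. The 15 beyond them lie inside Ptprm, a receptor tyrosine phosphatase gene, with 7 Up and 0 Down, against 7 and 0 by voom, 6 and 0 by DESeq2, and 8 and 0 at an unadjusted p-value under 0.05. The ACS at 131264 bp upstream (114342483 to 114342958) had the smallest p-value of all members. It held 43.2, 35.8 and 46.9 CPM in adults and 15.4, 14.8 and 16.9 CPM at P10, and its log2 fold change was 1.42 (SE 0.18, adjusted p = 6.18e-06). The ACS at 291420 bp upstream (114502639 to 114503155) held 24.9, 21.4 and 21.3 CPM in adults and 9.25, 9.91 and 10.1 CPM at P10, a log2 fold change of 1.21 (SE 0.20, adjusted p = 0.000197). The 27 ACSs listed with Ptprm itself, nearer to that gene's start, had 9 Up and 0 Down.

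**Figure D4:**
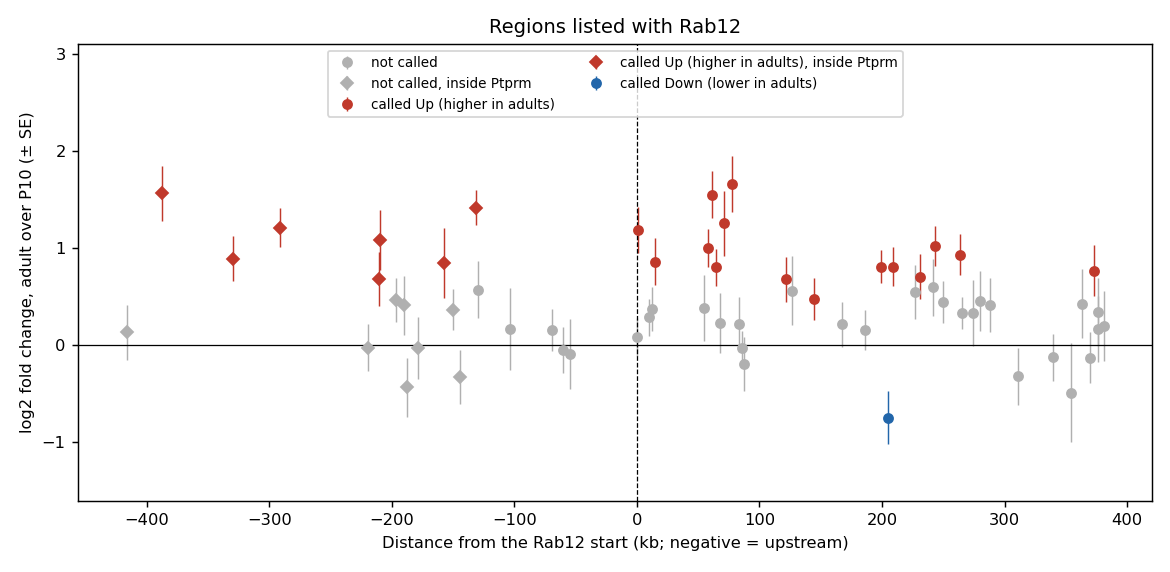
Log2 fold change of adult over P10 with its standard error for the 62 ACSs listed with Rab12, by distance from the gene start in kb, negative upstream. Diamonds lie inside Ptprm, red and blue mark Up and Down calls, and Up calls are found on both sides of the start, which itself is near 0.

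Over all members, 25 ACSs have their midpoint inside another gene of the table, 15 of them in Ptprm and 6 in Pde4d, and 11 of the 25 were Up and 0 Down. At an unadjusted p-value under 0.05, 12 were higher and 1 lower, voom called 11 Up and 0 Down, and DESeq2 9 Up and 1 Down. Without them, 62 of 423 members were Up (14.7%) and 20 Down (4.73%). Genes that are the nearest gene of 0 ACSs, such as Mtcl1, Bcr, Rsph14 and Myrfl, could not count here, so members inside such genes were not removed. Within 10 kb of the start, 5 of 93 members were Up (5.38%) and 1 Down (1.08%), against 6.74% and 7.32% of all ACSs at that distance. Between 10 and 100 kb, 31 of 180 were Up (17.2%) and 13 Down (7.22%), against 13.9% and 6.69%. Farther out, where 13 genes including Rab12 had ACSs, 37 of 175 were Up (21.1%) and 6 Down (3.43%), against 13.6% and 6.21%. Of these 37, 7 are the Rab12 ACSs inside Ptprm. Others lie downstream of Rab12, at 121688, 144241, 198789, 209007, 230896, 243041, 263764 and 372647 bp from its start. Rab12 thus supplied a large part of the Up calls at this distance. Shares by distance without Rab12 were not counted. The nearest gene is a position and not a regulatory link, and which gene a far ACS acts on was not measured.

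Counts summed over all ACSs of a gene were tested in the same way over 13834 genes, of which 10.5% were Up and 7.69% Down. Of the 59 member genes 7 were Up, 2 Down and 50 not called. Rab15 was Up, at 41.7, 34.4 and 34.4 CPM in adults and 24.9, 19.6 and 21.7 CPM at P10, with a log2 fold change of 0.74 (SE 0.15, adjusted p = 0.00934), and leaving out a library in turn removed the call in 0 of 6 cases. Rab12 was Up by 0.55 (SE 0.15, adjusted p = 0.0405) and lost its call without P10 replicate 2 (0.53, adjusted p = 0.28). The groups of both genes did not overlap.

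Rab25 was Down, at 18.1, 19.6 and 14.5 CPM in adults and 26.2, 29.0 and 21.8 CPM at P10, with a log2 fold change of -0.55 (SE 0.17, adjusted p = 0.0719). Its call was lost without Adult replicate 6 (adjusted p = 0.236) and without P10 replicate 2 (adjusted p = 0.33). The 6 symbols that are not GTPases had 37 ACSs, 7 Up (18.9%) and 1 Down (2.7%), against 12.3% and 6.63% of all ACSs. Of the 7 Up ACSs, 6 belong to Rab3ip. Rab3ip, the GEF Rabin8 that activates Rab8, was Up by 0.37 (SE 0.11, adjusted p = 0.0647). Its ACS 180950 bp downstream (chromosome 7, 59781128 to 59781567) held 29.9, 19.0 and 28.5 CPM in adults and 12.04, 9.91 and 10.1 CPM at P10, with a log2 fold change of 1.27 (SE 0.21, adjusted p = 0.000197). All 6 Up ACSs of Rab3ip lie downstream of it, between 53.35 and 180.95 kb from its start, while its Down ACS is 3657 bp upstream. The gene total of Rab3ip was not called without Adult replicate 6 (adjusted p = 0.246) or P10 replicate 2 (adjusted p = 0.325).

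The other 5 called genes were nearer the limit and each lost the call without 3 or 4 of the 6 libraries. They were Rab36 (0.35, adjusted p = 0.112), Rab5al1 (0.35, adjusted p = 0.122), Rab27b (0.30, adjusted p = 0.177) and Rab2a (0.30, adjusted p = 0.177) on the Up side and Rab11fip2, a Rab11 effector (-0.29, adjusted p = 0.176), on the Down side. Without P10 replicate 2, 1 gene was Up and 0 Down, without Adult replicate 4, 4 were Up, and without Adult replicate 6, 3 were Up and 0 Down. Without P10 replicate 1, 7 were Up and 4 Down. With column sums 4 were Up and 9 Down, with cyclic loess 4 and 5, and with total reads 0 and 55. The symbol Rab5al1 is listed on chromosome 14, where RefSeq places that gene, but with the identifier of Rab5a, the early endosome Rab. Its 18 ACSs held 5 Up, all upstream between 245.855 and 425.646 kb, and 1 Down. Likewise 9 of the 12 ACSs listed as Rab1b carry the identifier that RefSeq gives to Rab1a.

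**Figure D5:**
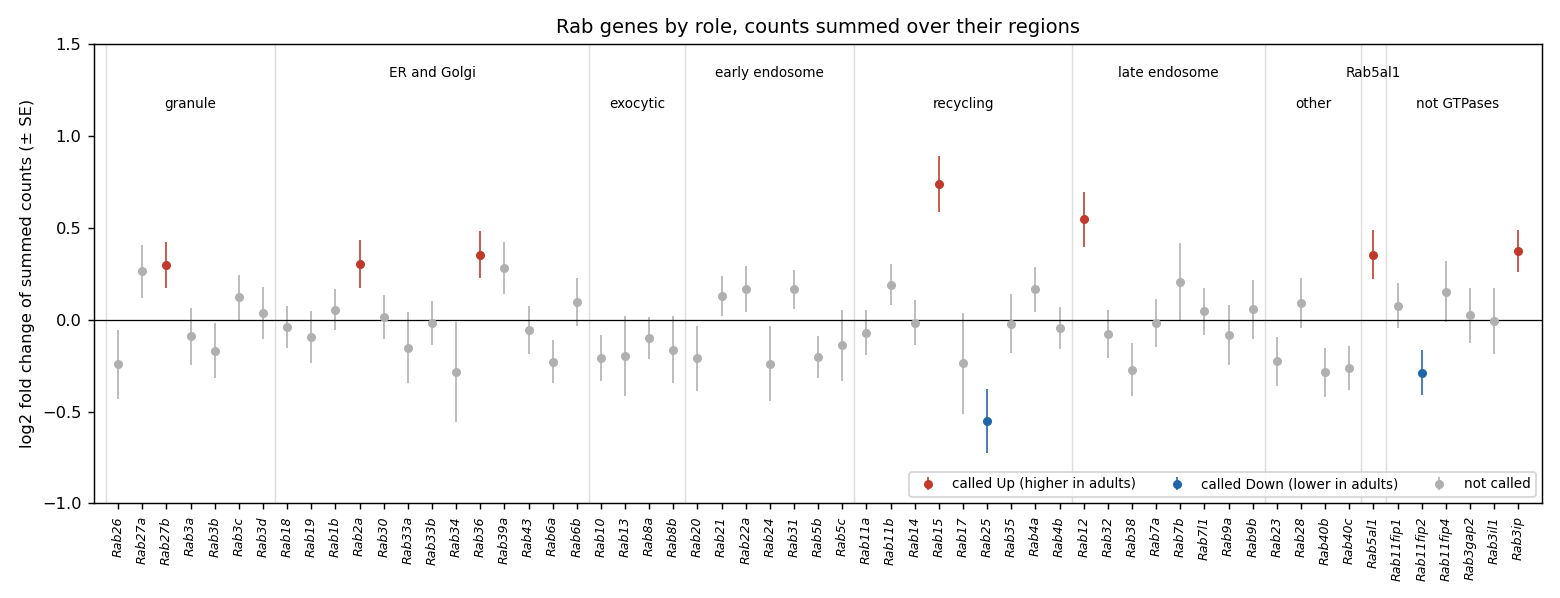
Log2 fold change of adult over P10 with its standard error for the 59 symbols, from counts summed over the ACSs of each, ordered by role. The 7 red points are Up, from 0.30 for Rab27b and Rab2a to 0.74 for Rab15, the 2 blue points are Down, and the other 50 symbols were not called.

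At the level of genes, 26 of the 59 had at least 1 called ACS, 15 of them Up only, 2 Down only and 9 in both directions, and 33 had none. The same share over all genes was not counted, and a gene with more ACSs has more places for a call. The genes with Down only were Rab25 and Rab38. The 3 genes with the most ACSs, Rab12, Rab28 and Rab2a, held 140 of the 448 members (31.2%), whereas 27 genes had 1 or 2.

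The partners of Rab proteins were taken from a list of 140 GEFs, GAPs, GDI and prenylation factors and effectors, of which 96 were the nearest gene of an ACS. Their 651 ACSs held 90 Up (13.8%) and 32 Down (4.92%), against 12.3% and 6.63% of all ACSs. Effectors had 45 Up and 12 Down of 301, GAPs 31 and 11 of 223, GEFs 13 and 8 of 102, and GDI and prenylation factors 1 and 1 of 25. In the TSS class 2 of 83 were Up and 4 Down, against 2.73% and 7.87% of all TSS ACSs.

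Among the effectors, an ACS inside Golga5, which encodes the Golgi tether golgin-84, held 23.0, 12.1 and 9.41 CPM in adults and 1.53, 0.999 and 2.27 CPM at P10. The log2 fold change was 3.19 (SE 0.33, adjusted p = 5.03e-07). Upstream of Eea1, the early endosome tether that binds Rab5, an ACS was Up by 2.04 (SE 0.26, adjusted p = 7.57e-06), and upstream of Pik3c3, the phosphatidylinositol 3-kinase of endosomes, another was Up by 1.73 (SE 0.23, adjusted p = 1.33e-05). On the other side, an ACS upstream of Rin2, a GEF for Rab5, fell from 30.2, 38.2 and 29.8 CPM at P10 to 15.7, 21.9 and 14.8 CPM in adults, with a log2 fold change of -0.90 (SE 0.19, adjusted p = 0.00284). An ACS inside Rims1, the active zone protein that binds Rab3, gave -1.08 (SE 0.25, adjusted p = 0.00563), and an ACS inside Vps41, a subunit of the HOPS tether that binds Rab7, gave -1.22 (SE 0.33, adjusted p = 0.0162). The groups did not overlap at any of these 6 ACSs, which were selected by their p-values in the same libraries.

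Markers of islet and other cells were read by their ACSs. Of 9 beta cell markers, 7 were the nearest gene of an ACS, and G6pc2 and Mafa were not. Of their 88 ACSs, 14 were Up and 11 Down. The summed level over the 88 ACSs was 905 to 1043 CPM in adults and 851 to 1153 CPM at P10. For the 6 alpha cell markers, with 113 ACSs, it was 943 to 1110 CPM in adults and 797 to 898 CPM at P10. It was also higher in every adult for 6 of 8 immune markers (14 ACSs, 79.4 to 91.9 CPM against 58.8 to 72.1 CPM, with Cd68 and Lyz2 absent) and 8 of 8 endothelial markers (62 ACSs, 496 to 580 CPM against 458 to 492 CPM). Over ACSs of the TSS class, sums overlapped for alpha markers (102 to 128 CPM in adults, 110 to 130 CPM at P10, 0 of 6 called). They also overlapped for endothelial markers (23.5 to 31.7 CPM against 28.9 to 35.5 CPM, 0 of 2 called). For beta markers they overlapped too (165 to 223 CPM against 203 to 329.5 CPM), but 1 of the 6 was Up and 2 were Down. The 1 immune ACS of that class was Up (26.4 to 36.7 CPM against 15.9 to 17.6 CPM). The 5 duct markers with an ACS (45 ACSs) gave 293 to 322 CPM against 260 to 273 CPM over all their ACSs, higher in every adult, but 33.6 to 42.8 CPM against 44.8 to 50.4 CPM over the 4 ACSs of the TSS class, lower in every adult, with 2 of the 4 Down. For the 4 delta markers, the sums over all ACSs overlapped, and over the 6 ACSs of the TSS class they were 31.1 to 35.1 CPM in adults and 40.7 to 47.6 CPM at P10, with 3 of the 6 Down. Sums over all ACSs overlapped for 9 of 13 acinar and 7 of 8 mesenchyme markers. The part of these cells in the Rab differences was not tested.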

How the data were processed

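The authors aligned ATAC-seq reads of rat islet cells to Rn5 with BWA 0.7.13, removed mitochondrial and poorly mapped reads, called peaks with MACS2 2.1.1 on the pooled libraries of each age, joined them, and deposited the raw counts of Tn5 integrations in each ACS, with nearest gene and class. Whether PCR duplicates were removed is not given in the sources used here. Columns of the authors' own test (fold change, p-value, FDR) were not used. Of 101941 entries, 338 repeat an ACS and were counted once.

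The 3 adult and 3 P10 libraries were compared with edgeR 4.0.16 in R 4.3.3 (TMM scaling, quasi-likelihood test, age as the only term). The SE is the absolute log2 fold change divided by the root of F. For genes, counts were summed over all ACSs of a symbol. In simulated counts, 200 of 101603 ACSs were changed by 1 on the log2 scale, and 37% of these were called correctly, with 21 false calls. Far fewer ACSs changed there than were called in the data, and the adjusted limit depends on that number. The 37% is therefore not the share found in the real comparison. Alternatives used limma 3.58.1, DESeq2 1.42.0, other scalings and filters, and left out each library. Those without Rab12, without ACSs inside other genes and without symbols of other proteins were chosen after seeing the data.

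The members and lists were chosen with earlier results of these data known. Named are the start ACSs of granule Rabs, the 8 Up and 8 Down members with the smallest p-values, the called ACS of smallest p of each role not among them, 3 Up and 3 Down ACSs of partners, and Rab genes called by summed counts. Other ACSs given with their values, inside Rab12, Rab15, Rab7b, Rab27a and Rab3b and elsewhere, were added after their values were seen. An ACS counts as inside another gene by its midpoint, with only genes listed with an ACS considered and gene spans over 2000000 bp left out. Distances run from the gene start to the first base of the ACS. A listed marker is not reported here.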

Additional observations from a re-analysis of the deposited data

How the results depend on the processing

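No paired analysis was made, because the adults were 3 separate rats and the P10 libraries came from 3 litters. No link between an adult and a litter is given. Leaving out each library gave 42 to 82 Up and 10 to 22 Down members, 7973 to 13232 Up and 3285 to 7215 Down among all ACSs, 1 to 7 Up and 0 to 4 Down Rab genes by summed counts, and 62 to 106 Up and 17 to 36 Down ACSs of Rab partners. With the stricter adjusted p under 0.05, 42 members were Up and 6 Down, as were 7177 and 1945 of all ACSs, 2 and 0 Rab genes, and 56 and 9 partner ACSs. With total reads as library sizes, 7 members were Up and 248 Down, 1062 and 61663 of all ACSs, 0 and 55 Rab genes, and 4 and 383 partner ACSs, and the start ACSs of Rab27b and Rab3d turned to -0.74 and -0.84 and were Down, as were those of Rab3a (-0.98), Rab3c (-0.97) and Rab3b (-1.01), while that of Rab27a turned to -0.60 and was not called. With column sums, 34 members, 10732 of all ACSs, 9 Rab genes and 62 partner ACSs were Down, and 4 Rab genes Up. With cyclic loess, 4 Rab genes were Up and 5 Down, and 59 partner ACSs Down. Limma's voom test and DESeq2 each called 1 Rab gene Down, and ACSs with a mean count of at least 50 left 54 partner ACSs Down. Of the 30 ACSs named by rule, 30 kept their side of the limit with column sums, cyclic loess, voom and DESeq2. Among those not called, the start ACS of Rab27b was -0.02 with column sums, and that of Rab3d was -0.09 with column sums, -0.07 with cyclic loess and -0.01 with DESeq2. Depth limits the ACSs with few counts, such as the Rab7a ACS with 3 counts in a library.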
